A study of Mus musculus with 4 samples.

Results

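Hepatic stellate cells are the retinoid-storing mesenchymal cells of the liver. When activated they become the main source of collagen in a scarring liver, and in the resting state they keep vitamin A as retinyl esters and secrete small amounts of matrix. A group of 10 genes that mark these cells or encode matrix proteins was described here in refed mouse liver with and without SREBP1c. The 10 genes were chosen by name, out of 23920 genes in the deposited table, with earlier results of these data known. They are the fibrillar collagen genes Col1a1, Col1a2 and Col3a1, the matricellular and matrix-associated genes Sparc and Spp1, and the stellate cell genes Lrat, Reln, Colec11, Dcn and Des. SREBP1c, a product of Srebf1, is the insulin-responsive transcription factor of fatty acid synthesis in hepatocytes, and liver fat is known as a setting in which stellate cells become activated.

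Bulk liver RNA was sequenced in 4 libraries, 2 from wild-type mice (genotype SREBP1c WT) and 2 from knockout mice (SREBP1c KO). All mice were C57BL/6 males aged 12 weeks, deprived of food for 24 h before 12 h of refeeding. How the knockout allele was made, and whether each library came from its own animal, is not given in the sources used here, so the spread within a group may be technical. Steps of a single fragment in the low values gave depths of 20.55 to 22.85 M (mega) fragments per library, and each group held a deeper and a shallower library. The Srebf1 level was 63.7 and 58.2 FPKM (fragments per kilobase of transcript, scaled to library depth) in WT and 8.63 and 6.97 FPKM in KO, in the direction of the labels. In bulk RNA, fewer cells of a type and less RNA per cell cannot be told apart.

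All 10 genes had a mean of at least 1 FPKM in each group, so none passed the filter on low values through 1 group alone. The stellate genes Lrat, Reln and Colec11 were detected in every library. Spp1, Sparc and Colec11 had both KO values above both WT values, by 1.46 to 1.99 times in the group means. The 3 collagen genes and Lrat, Dcn and Des overlapped between the groups. None of the 10 passed the limma threshold (adjusted p under 0.05 over all genes), against 0.0713% of the 9820 genes tested (0.0102% higher in KO and 0.0611% lower). At an unadjusted limma p under 0.05 there were 3 of the 10 higher in KO and none lower, against 4.5% and 3.25% of all genes. Both KO libraries lay above both WT libraries for 4 of the 10, against 22.4% of all genes, and below them for 0, against 16.4%. The median log2 difference of the 10 genes was 0.09, against 0.02 over all genes tested. Since the 10 were chosen with earlier results known, the shares set beside them describe the values and are not a test.

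**Figure D1:**
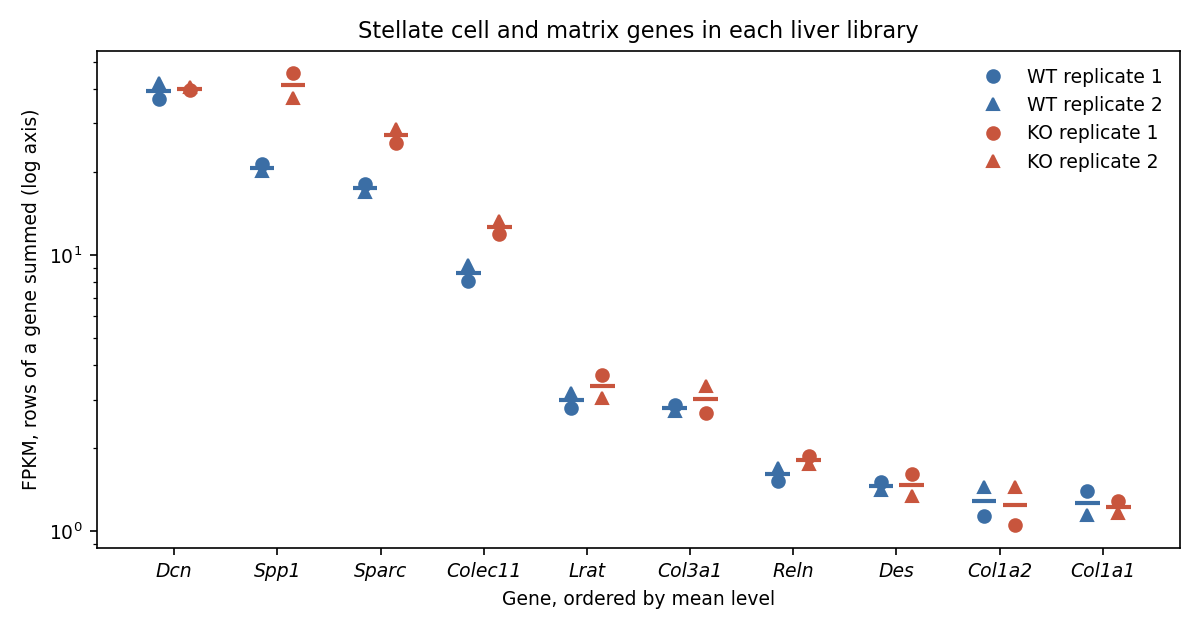
FPKM of each gene (rows summed, log axis) in the 2 WT and 2 KO libraries, ordered by mean level. Points are libraries and short lines are group means. Spp1, Sparc and Colec11 stand higher in both KO libraries, while Dcn, near 40.0 FPKM, and the collagens, near 1 to 3 FPKM, overlap.

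Sequences of Sparc and Spp1, the members with the largest differences, are shown first. Sparc has 2 rows in the table, NM_009242 and NM_001290817. GENCODE M21 pairs them with the transcripts Sparc-201 and Sparc-202 (GRCm38, the assembly of mm10, minus strand). Their coding sequences part at the start of exon 3, chr11:55407220-55407279 in Sparc-201 and chr11:55407220-55407276 in Sparc-202. The other coding exons have the same coordinates. Below are the coding bases of exon 2 followed by exon 3, with the 3 bases found only in Sparc-201 in capitals.
Sparc-201: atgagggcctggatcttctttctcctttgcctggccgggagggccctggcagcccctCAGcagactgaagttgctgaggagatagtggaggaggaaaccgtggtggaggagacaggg
Sparc-202: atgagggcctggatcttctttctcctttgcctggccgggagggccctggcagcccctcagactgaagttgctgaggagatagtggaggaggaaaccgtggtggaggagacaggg
The extra bases repeat the bases that follow them, and they begin after 57 coding bases, so the transcripts differ there by a single whole codon. In GENCODE the first exon also differs in length, 293 bases in Sparc-201 and 111 in Sparc-202. Only fragments over these places separate the 2 rows, so a row value depends on few fragments and on how the program shared the others.

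The promoter of Spp1 is shown because it was the only one among the members with a match to the sterol regulatory element, the site that SREBPs are known to bind. The RefSeq promoter table (GRCm38.p6) held 8 of the 10 genes, without Col1a1 and Dcn. The 250 bases before each start were searched on both strands for the sterol regulatory element (TCACNCCAC), the E-box (CACGTG), AP-1 (TGANTCA), Sp1 (GGGCGG) and the TATA box (TATAAA). The table has 2 windows for Spp1. That of the start further upstream, chr5:104434861-104435110 on the plus strand, is printed with its matches in capitals, and the other, chr5:104435942-104436191, held none of the motifs.
Spp1: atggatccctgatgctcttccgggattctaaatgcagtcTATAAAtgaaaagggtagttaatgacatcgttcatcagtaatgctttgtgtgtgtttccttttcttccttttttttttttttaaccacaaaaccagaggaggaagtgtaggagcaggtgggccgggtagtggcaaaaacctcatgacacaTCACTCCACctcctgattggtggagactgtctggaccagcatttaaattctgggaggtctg
The sterol element match begins 61 bases before the start and a TATA box match 211 bases before it. Of 32851 promoter windows of this length, 1.05% held the sterol element, 6.02% the E-box, 6.75% AP-1, 32.7% Sp1 and 12.4% the TATA box. Among the members, the E-box letters were in the window of Reln, the Sp1 letters in those of Col1a2, Des, Lrat and Reln, and the TATA letters in those of Col3a1 and Spp1. The windows of Sparc and Colec11 held none of the 5. A match is a run of letters and not a measured binding site.

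The fibrillar collagens are the bulk of scar matrix, and their level is the usual transcript readout of stellate cell activation. Col1a1, a chain of type I collagen (chr11:94936224-94953042), had 1.40 and 1.14 FPKM in WT against 1.29 and 1.17 in KO. The KO values lay between the WT values, and the log2 difference was −0.02 with a 95% interval of −0.31 to 0.26 (limma adjusted p = 0.975). Col1a2, the other chain of type I collagen (chr6:4505618-4541543), had 1.13 and 1.45 FPKM in WT against 1.05 and 1.45 in KO. Its log2 difference was −0.03, with an interval of −0.37 to 0.31 (limma adjusted p = 0.976). Col3a1, which encodes type III collagen (chr1:45311538-45349706), had 2.87 and 2.74 FPKM in WT against 2.69 and 3.36 in KO. KO replicate 1 was the lowest of the 4 libraries and KO replicate 2 the highest, with a log2 difference of 0.08 (interval −0.23 to 0.38, limma adjusted p = 0.909).

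These levels rest on few fragments. At the depths above and GENCODE lengths, Col1a1 corresponded to about 141 to 189 fragments per library, Col1a2 to 128 to 161 and Col3a1 to 317 to 384. The sum of the 3 collagens was 5.40 and 5.33 FPKM in WT against 5.04 and 5.97 in KO. Per unit length, Col1a1 was 1.23 times Col1a2 in WT replicate 1 and in KO replicate 1, and 0.789 and 0.808 times Col1a2 in WT replicate 2 and KO replicate 2. The 2 chains thus ordered alike in libraries with the same replicate number rather than the same genotype. Col3a1 was 2.05 to 2.88 times Col1a1 in every library.

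Spp1 encodes osteopontin, a secreted phosphoprotein that binds integrins and CD44. In liver it is known from bile duct cells, macrophages and activated stellate cells. Spp1 (chr5:104435111-104441053) had 21.3 and 20.2 FPKM in WT against 45.5 and 37.0 in KO. Every KO value was above every WT value, at 20.7 ± 0.755 against 41.3 ± 5.96 FPKM (SD, n = 2 each), a 1.99-fold higher mean. The log2 difference was 0.95 with an SE of 0.13 and an interval of 0.63 to 1.27. The limma adjusted p was 0.136, so Spp1 did not pass, although it ranked 25 of 9820 genes by p.

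Spp1 has 5 rows in the table, and nearly all of its signal sat in 1 of them. NM_009263 held 95.5% to 98.0% of the summed FPKM in the 4 libraries, with 20.9 and 19.6 FPKM in WT against 44.3 and 35.4 in KO. NM_001204202 had 0.27 and 0.57 FPKM in WT against 0.87 and 1.15 in KO. NM_001204233 was at most 0.519 FPKM, and the other 2 rows were at or near 0. The higher level was thus in the main row, and no shift to another row was seen beyond a few percent.

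Since bile duct cells are known for Spp1, their other markers were read beside it. The defining markers Krt7, Krt19 and Epcam, keratins and an adhesion molecule of bile ducts, were low. Krt7 had 0.523 and 0.509 FPKM in WT against 0.699 and 0.639 in KO, and Epcam 0.479 and 0.5 FPKM in WT against 0.632 and 0.67 in KO. Krt19 had 0.889 and 0.861 FPKM in WT against 2.23 and 1.28 in KO (limma adjusted p = 0.57). It reached the minimum for testing through the KO group alone. The 10 bile duct markers other than Spp1 summed to 10.2 to 10.6 FPKM in WT and 10.7 to 11.2 FPKM in KO. Of all 11, Spp1 included, 5 were higher and 1 lower in both KO libraries. Only 4 of the 11 reached the minimum, so the count over all 11 has no matching share of the genes tested. Of these 4, again with Spp1, 2 were higher and 1 lower in both, against 22.4% and 16.4% of the genes tested. Cftr was under 0.1 FPKM in every library. The macrophage list summed to 150 to 181 FPKM in WT and 154 to 253 FPKM in KO, highest in KO replicate 2. The part of either cell type in the Spp1 difference was not tested.

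Sparc encodes osteonectin, a collagen-binding matricellular protein made by stellate and endothelial cells. Sparc (chr11:55394159-55420080) had 18.0 and 17.0 FPKM in WT against 25.5 and 28.7 in KO with its rows summed. The groups did not overlap, at 17.5 ± 0.764 against 27.1 ± 2.27 FPKM (SD, n = 2 each), a 1.55-fold higher mean. The log2 difference was 0.60 with an SE of 0.11 and an interval of 0.33 to 0.87, and the limma adjusted p was 0.246. The endothelial list summed to 95.9 and 99.7 FPKM in WT against 98.5 and 123 in KO. Its part in the Sparc difference was not tested.

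The 2 Sparc rows were both higher in KO, but not in the same proportion. The longer form, NM_009242, had 16.0 and 15.0 FPKM in WT against 18.4 and 23.1 in KO, a log2 difference of 0.38 (interval 0.02 to 0.75, limma adjusted p = 0.69 over the 11494 rows tested). The form without the extra codon, NM_001290817, had 2.01 and 1.92 FPKM in WT against 7.15 and 5.64 in KO. That was a 3.25-fold higher mean and a log2 difference of 1.31 (interval 0.93 to 1.69, limma adjusted p = 0.238). Neither row passed, against 0.0435% of all rows, and both were higher in both KO libraries, against 21.6% of all rows.

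As a share of summed Sparc FPKM, NM_001290817 made up 11.2% and 11.3% in WT against 28.0% and 19.6% in KO. The WT libraries were nearly equal and both KO libraries were higher, with KO replicate 1 the highest. The row corresponded to about 84 to 344 fragments per library, and NM_009242 to 720 to 1091. These are fragments as the program shared them between the rows. The number that lay over the places where the rows differ is not known. The KO mean of the sum was 9.61 FPKM above the WT mean, of which NM_001290817 held 4.43 FPKM and NM_009242 held 5.18 FPKM. The share of the rows was not put to a test of its own.

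**Figure D2:**
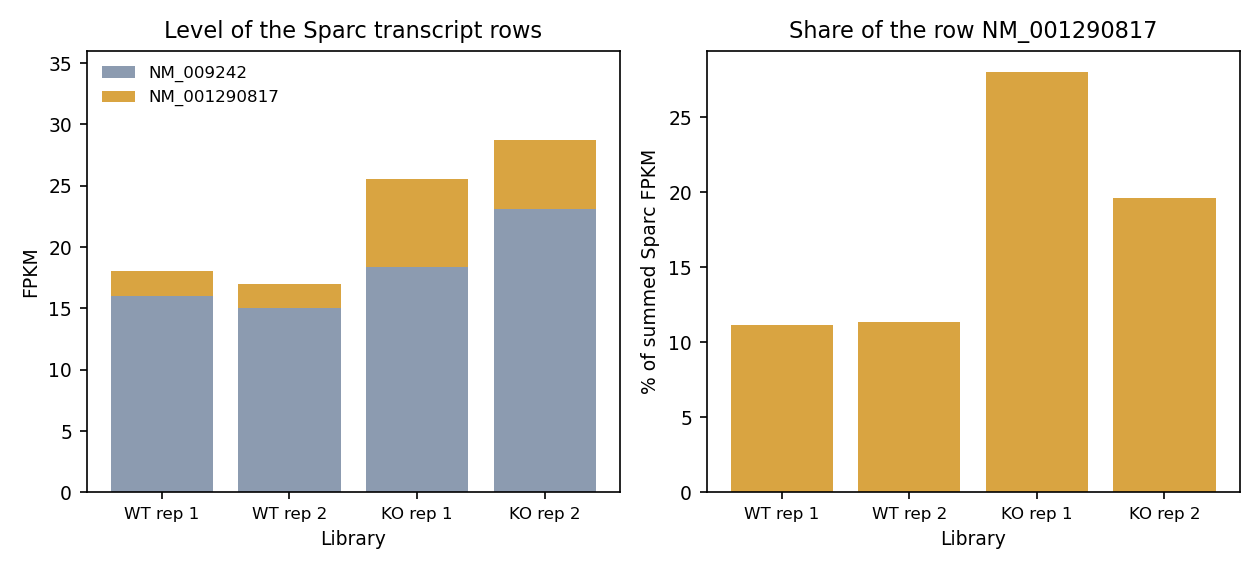
FPKM of the 2 Sparc transcript rows stacked (left) and the share of the row NM_001290817 in their sum in percent (right), for each of the 4 libraries. The share is 11.2% and 11.3% in WT against 28.0% and 19.6% in KO.

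Sparc lies 4.78 Mb from Srebf1, the targeted gene, on the same chromosome. Its neighbours were therefore read by position, over genes starting within 500 kb of its start. Of the 7 tested, none passed, 1 lay higher and 5 lower in both KO libraries (22.4% and 16.4% of all genes), and the log2 differences ran from −1.02 to 0.63. Atox1, a copper chaperone gene 52.5 kb away, had 285 and 318 FPKM in WT against 147 and 149 in KO, a 2.04-fold lower mean (limma adjusted p = 0.108). Anxa6, which encodes a membrane-binding annexin, had 52.2 and 49.8 FPKM in WT against 37.5 and 37.1 in KO. Gpx3, an extracellular glutathione peroxidase gene, had 3.76 and 4.25 FPKM in WT against 2.36 and 2.55 in KO, and Gm2a, a ganglioside activator gene, 17.8 and 17.5 FPKM in WT against 13.5 and 14.0 in KO. Tnip1, an inhibitor of NF-κB signalling, had 3.76 and 3.11 FPKM in WT against 5.47 and 6.22 in KO. Whether position near the targeted locus has a part in the Sparc values was not tested.

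**Figure D3:**
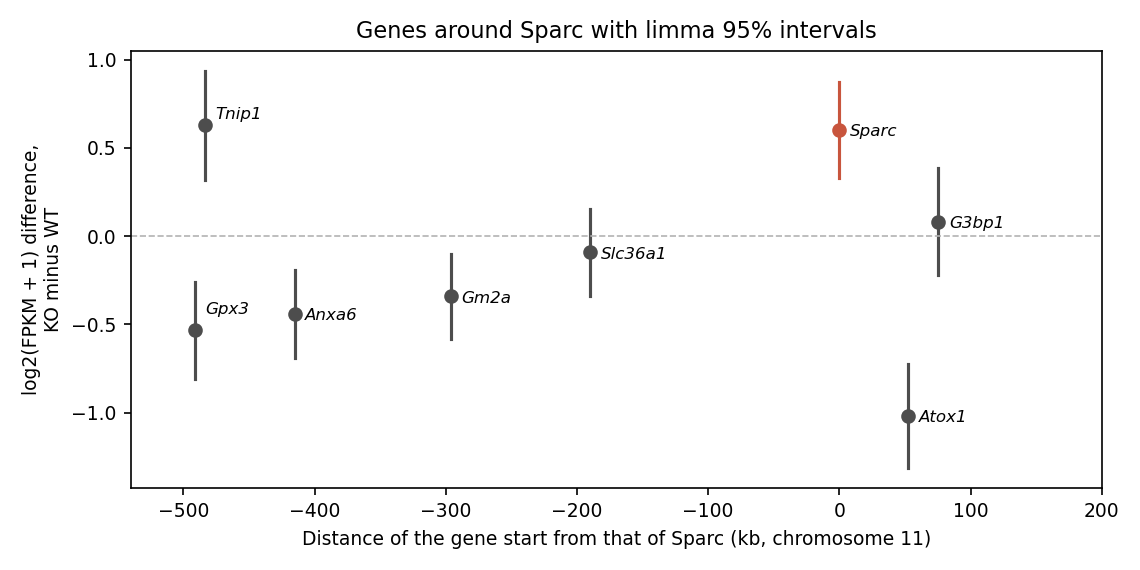
log2(FPKM + 1) difference, KO minus WT, of Sparc (red) and the 7 tested genes within 500 kb, by distance of gene starts in kb. Vertical lines are limma 95% intervals. Atox1 is the lowest at −1.02, while Sparc (0.60) and Tnip1 (0.63) are the highest.

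The stellate cell genes came at very different levels. Dcn, which encodes decorin, a small proteoglycan that coats collagen fibrils (chr10:97479500-97518163), was the most abundant of the 10. It had 36.6 and 41.8 FPKM in WT against 39.6 and 40.4 in KO, and the KO values lay within the WT range. The log2 difference was 0.03 with an interval of −0.25 to 0.31 (limma adjusted p = 0.964). Its 2 rows kept their proportions, with NM_001190451 at 61.4% to 66.6% of the sum in the 4 libraries.

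Colec11 encodes a soluble lectin of the complement system, collectin-11, which in mouse liver is known from stellate cells. Colec11 (chr12:28594172-28623458) had 8.08 and 9.22 FPKM in WT against 11.9 and 13.3 in KO. Both KO values were above both WT values, at 8.65 ± 0.809 against 12.6 ± 0.974 FPKM (SD, n = 2 each), a 1.46-fold higher mean. The log2 difference was 0.50 (interval 0.21 to 0.79), and the limma adjusted p was 0.402. The table has a single Colec11 row of about 263 to 389 fragments per library. Its relative Colec10, another collectin gene listed with the stellate genes, had 2.80 and 2.91 FPKM in WT against 2.69 and 3.08 in KO. Colec10 was read beside Colec11 after its values were seen.

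Lrat encodes the enzyme that esterifies retinol for storage in stellate cell droplets and is the most specific marker of these cells. Lrat (chr3:82892582-82903974) had 2.80 and 3.18 FPKM in WT against 3.68 and 3.03 in KO, with KO replicate 2 inside the WT range. The log2 difference was 0.12 (interval −0.19 to 0.43, limma adjusted p = 0.852). Reln, which encodes the secreted glycoprotein reelin (chr5:21884454-22344705), had 1.52 and 1.70 FPKM in WT against 1.87 and 1.76 in KO. The groups just failed to overlap, with a log2 difference of 0.11 (interval −0.16 to 0.38, limma adjusted p = 0.847). Des, the intermediate filament gene of stellate and muscle cells (chr1:75360292-75368579), had 1.51 and 1.42 FPKM in WT against 1.61 and 1.34 in KO. Its KO values lay on either side of both WT values, and the log2 difference was 0.01 (interval −0.27 to 0.29, limma adjusted p = 0.993).

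For the 7 genes other than Spp1, Sparc and Colec11 the intervals of the differences lay within −0.37 and 0.43, or 0.774 to 1.35 times on the (FPKM + 1) scale. A difference beyond that range was outside the 95% interval of each. The ratio of Colec11 to Lrat was 2.88 and 2.90 in WT against 3.25 and 4.40 in KO, and that of Dcn to Lrat 13.1 and 13.2 in WT against 10.8 and 13.4 in KO. The stellate genes therefore did not keep 1 common ratio across the libraries. The 5 together summed to 50.5 and 57.4 FPKM in WT against 58.7 and 59.9 in KO.

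**Figure D4:**
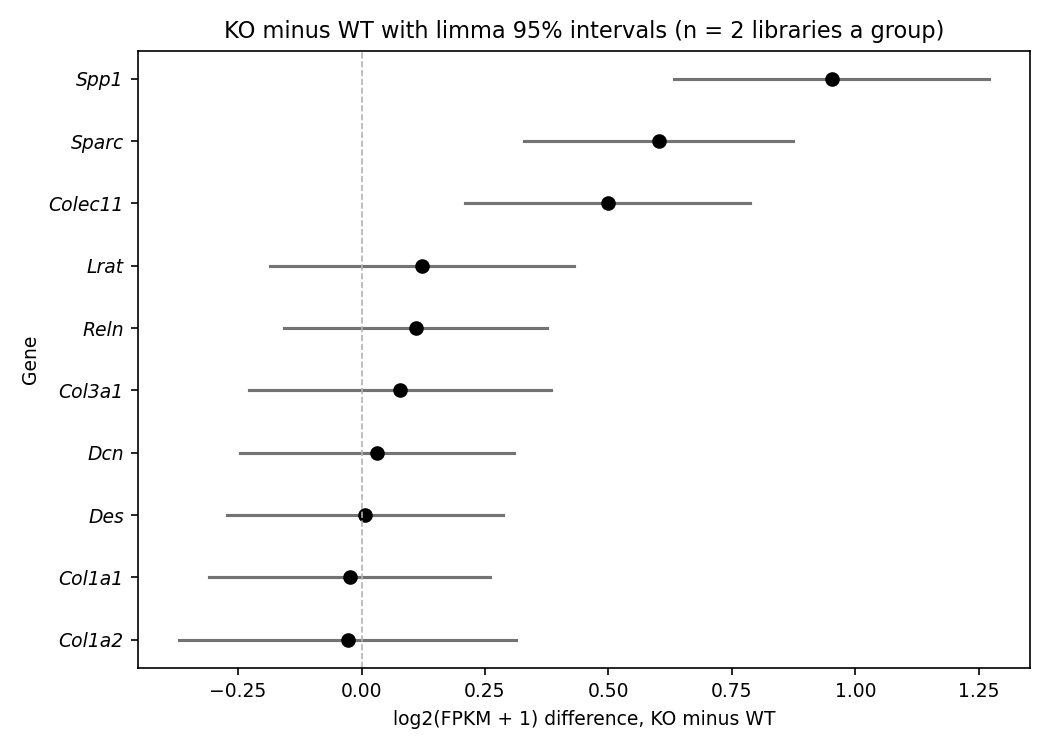
log2(FPKM + 1) difference, KO minus WT, of the 10 genes (points) with limma 95% intervals (lines), 2 libraries a group. The intervals of Spp1, Sparc and Colec11 lie above 0 and those of the other 7 include it, and none passed after adjustment over all genes.

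Leaving out a KO library moved 2 of the 10 genes past the threshold. Without KO replicate 1, Spp1 (log2 difference 0.81, limma adjusted p = 0.0140) and Sparc (0.68, 0.0303) passed. Without KO replicate 2, Spp1 passed (1.10, 0.00555). Over all genes the same fits called 306 and 117 genes in place of 7, since the remaining KO library is then assumed to vary as the WT libraries do. With 1 library left out the log2 differences ran from 0.81 to 1.10 for Spp1, 0.52 to 0.68 for Sparc and 0.41 to 0.58 for Colec11. Their sign could not turn in these fits, since both KO values lay above both WT values.

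Genes around the 10 were read in 9 wider lists, and in none of the lists did a gene pass in the fit of all 4 libraries. The lists too were chosen with earlier results of these data known, so their counts and medians are not a test. The list of resting stellate cell genes had 20 of 24 genes tested, 20 with a positive difference, and a median log2 difference of 0.18 (all genes 0.02, with 54.6% positive). Pdgfrb, a PDGF receptor gene counted among these 20, reached the minimum through the KO group alone. Both KO libraries were above both WT libraries for 11 of the 20, against 22.4% of all genes. Without the 5 members in it, the median was 0.20 and 9 of 15, again with Pdgfrb, had both KO libraries above. The positive count was 17 with upper-quartile scaling and 18 with quantile scaling, and 17 to 18 with 1 library left out. The median was then 0.094 without WT replicate 1 and up to 0.21 without WT replicate 2. The highest difference in the list was that of Steap4, a metalloreductase gene named after its values were seen, with 39.5 and 44.8 FPKM in WT against 40.9 and 171.5 in KO, so high in KO replicate 2 alone. Its log2 difference over the 4 libraries was 0.98, with an interval of −0.49 to 2.46 (limma adjusted p = 0.741). Cygb, the stellate cell globin gene, had 1.90 and 1.92 FPKM in WT against 2.56 and 2.45 in KO (limma adjusted p = 0.625). Sod3, an extracellular superoxide dismutase gene, had 8.93 and 10.5 FPKM in WT against 11.3 and 14.7 in KO.

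Of the list of activated stellate cells and myofibroblasts only 8 of 18 genes reached the minimum, Igfbp5 through the KO group alone. The median of these 8 was 0.53, and 5 of them, Igfbp5 included, had both KO libraries above both WT libraries, against 22.4% of all genes. The median was 0.30 without KO replicate 2. Over all 18 genes, with no filter, it was 0.045, with 11 positive and 7 negative. Fap was at most 0.0488 FPKM, Timp1 at most 0.377 FPKM and Lox at most 0.105 FPKM in every library, and these 3 were singled out after their values were seen. Acta2, the smooth muscle actin gene that defines myofibroblasts, had 1.30 and 0.806 FPKM in WT against 1.24 and 0.64 in KO. Among the genes tested, S100a6, a calcium-binding protein gene, had 1.73 and 1.73 FPKM in WT against 4.21 and 3.38 in KO (limma adjusted p = 0.174). Tpm2, a tropomyosin gene, had 2.72 and 2.53 FPKM in WT against 3.63 and 4.57 in KO. Ccn2, the connective tissue growth factor gene, had 2.21 and 2.22 FPKM in WT against 4.80 and 2.96 in KO, and Gas6, a ligand of TAM receptors, 10.2 and 10.5 FPKM in WT against 12.6 and 24.6 in KO. S100a6 and Ccn2 thus stood highest in KO replicate 1 and Gas6 in KO replicate 2. With 1 library left out the log2 differences ran from 0.68 to 0.93 for S100a6, 0.26 to 1.17 for Gas6 and 0.30 to 0.85 for Ccn2.

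Tagln and Acta2, contractile genes also carried by vascular smooth muscle, followed the replicate number. Tagln had 8.60 FPKM in WT replicate 1 and 8.21 FPKM in KO replicate 1, against 5.03 FPKM in WT replicate 2 and 4.66 FPKM in KO replicate 2. The 6 smooth muscle markers other than Des summed to 11.5 FPKM in each replicate 1 and to 7.26 and 7.04 FPKM in WT and KO replicate 2. Des, a member shared with that list, was also higher in the replicate 1 libraries of both groups. Tagln, most of that sum, Acta2 and Des thus split the libraries across the genotypes. Not every marker of the list did. Smtn, named after its values were seen, had 1.23 and 1.15 FPKM in WT against 1.69 and 1.51 in KO.

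The wider collagen list had 12 of 22 genes tested (Col13a1 through 1 group alone), 4 positive and 8 negative, with a median of −0.04 that turned to 0.012 without KO replicate 1. Among the tested genes none was higher in both KO libraries, against 22.4% of all genes tested, and 1, Col15a1, was lower in both, against 16.4%. Col15a1 had 4.58 and 3.29 FPKM in WT against 3.17 and 3.26 in KO. Among collagens under the minimum, Col6a2, Col16a1, Col4a3 and Col4a4 were higher in both KO libraries and the others overlapped. Those named were picked after their values were seen. Col18a1, a basement membrane collagen that hepatocytes express, was the most abundant, with 128 and 149 FPKM in WT against 115 and 140 in KO. Col4a2, a basement membrane chain, had 4.16 and 3.62 FPKM in WT against 3.20 and 3.995 in KO. Col27a1 had 3.002 and 1.86 FPKM in WT against 2.65 and 1.33 in KO, again higher in the replicate 1 libraries. Genes that modify and cross-link collagen had 14 of 25 tested, 12 positive, with a median of 0.13. The median was 0.044 without WT replicate 2, 0.051 without KO replicate 2 (9 positive and 5 negative) and 0.21 without KO replicate 1. Crtap, of the prolyl 3-hydroxylase complex, had 2.24 and 2.22 FPKM in WT against 2.64 and 3.16 in KO, and P4ha1, a prolyl 4-hydroxylase subunit gene, 2.20 and 1.499 FPKM in WT against 2.54 and 2.59 in KO. Loxl4, a lysyl oxidase gene, had 2.93 and 2.28 FPKM in WT against 4.16 and 3.26 in KO.

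Among matrix glycoproteins and proteoglycans, 18 of 43 genes were tested, 12 positive and 6 negative, with a median of 0.07 (0.025 and 0.039 with WT replicate 1 or KO replicate 2 left out, 0.12 and 0.14 with WT replicate 2 or KO replicate 1 left out). Spp1 and Sparc were the extremes on the higher side. Bgn, biglycan, a proteoglycan related to decorin, had 21.3 and 21.4 FPKM in WT against 25.7 and 26.7 in KO (limma adjusted p = 0.571). Smoc2, a secreted relative of SPARC, went the other way, with 2.98 and 3.01 FPKM in WT against 1.49 and 1.55 in KO. That was a 1.98-fold lower mean and a log2 difference of −0.67 (limma adjusted p = 0.174).

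**Figure D5:**
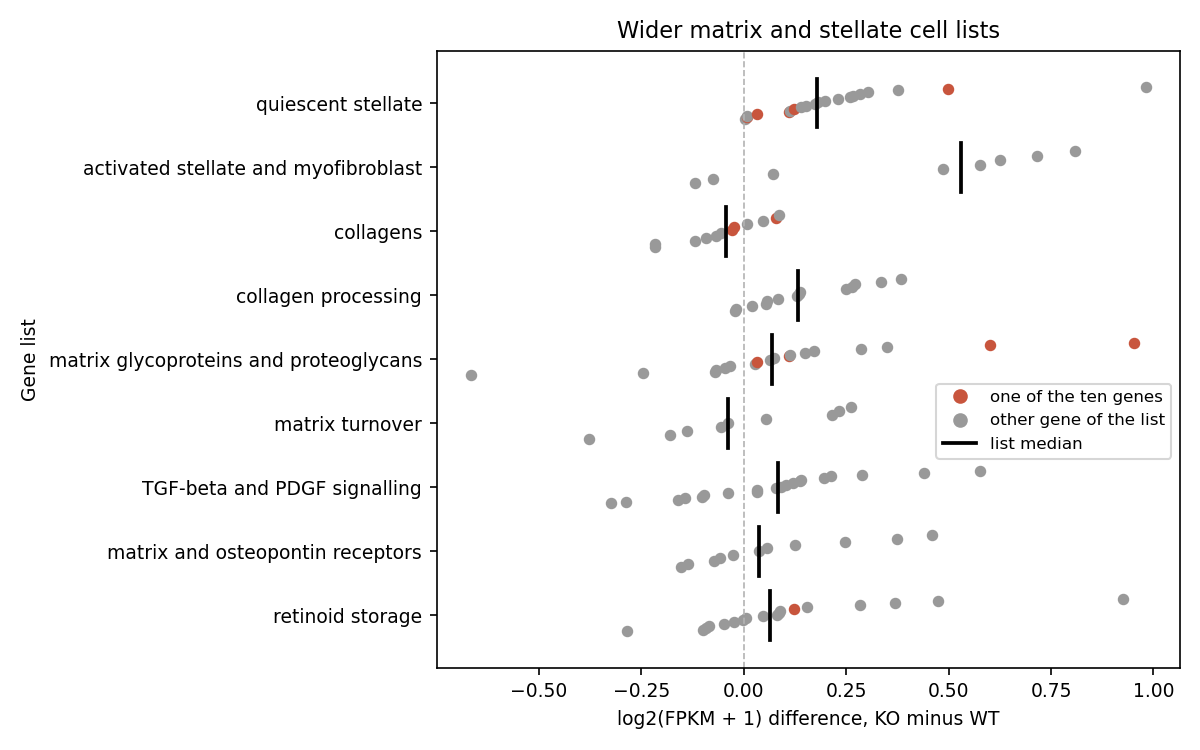
log2(FPKM + 1) difference, KO minus WT, of each tested gene in 9 lists, with the list median as a black line and the 10 genes in red. The collagens cluster around a median of −0.04, while Spp1 (0.95), Sparc (0.60) and Smoc2 (−0.67) lie farthest out among glycoproteins.

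The medians of the remaining lists were small and moved with single libraries. With 1 library left out they ran from −0.058 (WT replicate 2) to 0.11 (WT replicate 1) for matrix turnover, and from −0.0068 (KO replicate 2) to 0.17 (KO replicate 1) for TGF-beta and PDGF signalling. They ran from −0.025 (KO replicate 2) to 0.011 (KO replicate 1) for the receptors, and from 0.0026 (KO replicate 1) to 0.15 (KO replicate 2) for the retinoid list. Proteases of the matrix and their inhibitors had 9 of 27 tested and a median of −0.04, with Mmp15, a membrane-type protease gene, at 11.5 and 11.04 FPKM in WT against 9.30 and 7.65 in KO. Genes of TGF-beta and PDGF signalling, the main activating pathways of stellate cells, had 20 of 29 tested, Tgfbr3 and Pdgfrb through 1 group alone, and a median of 0.08. Tgfbi, a TGF-beta-induced matrix gene, had 6.30 and 6.66 FPKM in WT against 8.16 and 10.2 in KO, and the receptor gene Tgfbr2 7.51 and 6.51 FPKM in WT against 5.87 and 4.94 in KO. The receptors of matrix and osteopontin had 11 of 26 tested and a median of 0.04, with the osteopontin receptor Cd44, which reached the minimum through the KO group alone, at 1.05 and 0.669 FPKM in WT against 1.09 and 1.75 in KO. The retinoid list, around Lrat, had 18 of 25 tested and a median of 0.06. Cyp26b1, a retinoic acid hydroxylase gene, had 4.40 and 4.18 FPKM in WT against 7.02 and 5.74 in KO, and its relative Cyp26a1 19.4 and 19.5 FPKM in WT against 96.1 and 14.6 in KO. Cyp26a1 was high in KO replicate 1 alone. Without that library its log2 difference was −0.39, and without KO replicate 2 it was 2.25.

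Markers of other cells that a liver sample can hold were read beside these genes. Mesothelial markers, which report the liver capsule, were low, and 5 of 6 genes had both KO values above both WT values. Only Upk3b and Krt19 reached the minimum, both through the KO group alone. The share of 22.4% is over genes that reached the minimum, so the count over all 6 has no matching share. Msln had 0.212 and 0.44 FPKM in WT against 0.763 and 1.63 in KO, Upk3b 0.419 and 0.797 FPKM in WT against 0.84 and 2.04 in KO, and Upk1b 0.103 and 0.141 FPKM in WT against 0.31 and 0.509 in KO. The list, which includes Krt19, summed to 1.97 and 2.64 FPKM in WT against 4.64 and 6.35 in KO. Portal fibroblast markers summed to 3.71 to 4.09 FPKM in WT and 4.84 to 5.51 FPKM in KO. Of these 8 genes 6 were higher in both KO libraries and 1, Gli1, under 0.1 FPKM, was lower in both. Only 2 of the 8 reached the minimum, so the count over all 8 has no matching share. Of these 2, 1 was higher in both KO libraries, against 22.4% of the genes tested. The stellate cell markers summed to 89.3 and 101 FPKM in WT against 104 and 106 in KO, with Dcn the most abundant. Of the 10 that reached the minimum, 7 were higher and 0 lower in both KO libraries, against 22.4% and 16.4% of the genes tested. These 7 include the members Colec11 and Reln. They also include Pdgfrb, which reached the minimum through the KO group alone. Every marker of this list is also in the list of resting stellate cell genes. The count therefore repeats part of the count given for that list. Hepatocyte markers summed to 36967 and 40420 FPKM in WT against 35374 and 41484 in KO, with Alb listed at 0 in all libraries. Of the 11 hepatocyte markers tested, 2 were higher and 4 lower in both KO libraries. Neutrophil markers summed to 9.67 and 12.7 FPKM in WT against 6.98 and 25.4 in KO. Lymphocyte markers summed to at most 3.99 FPKM. Of the 12 endothelial markers, all tested, 3 were higher and 0 lower in both KO libraries. Of the 12 macrophage markers, all tested, 2 were higher and 0 lower. The shares of all genes tested were 22.4% and 16.4%. Of 11 lymphocyte markers, none of which reached the minimum, 3 were higher and 2 lower, and of 6 neutrophil markers 0 and 0. These lymphocyte and neutrophil counts include genes under the minimum and have no matching share. The part of these cells in the values of Spp1, Sparc and Colec11 was not tested.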

How the data were processed

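The authors deposited a table of FPKM values, with a column for each library and a row for each RefSeq transcript, per the file headers. The submitters' processing notes name Bowtie, TopHat and the build mm10. How FPKM was computed, from which annotation and with or without strand, is not given in the sources used here. Rows, 33170 in all, were summed to 23920 genes by gene number. Genes with a mean of at least 1 FPKM over the 4 libraries were tested on log2(FPKM + 1) with limma 3.58.1 (R 4.3.3, variance trend on intensity) and Benjamini-Hochberg adjustment over every gene tested. Transcript rows had a separate fit. Differences are given as KO minus WT on that log2 scale, on which low genes appear to differ less than they do, and folds compare mean FPKM. With 2 libraries in each group the smallest two-sided p of an exact permutation test is 0.333, so none was run.

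Depth came from whole-fragment steps in low values of single-row genes, using GENCODE lengths. In each library 50.0% to 53.2% of these values fell within 0.1 of a whole number, against a median of 14.6% to 16.1% at other depths, which was too few for a count test. Coordinates came from a RefSeq table of the same assembly, which matched 23847 genes. The fit was tested on simulated data. The 10 genes, the lists and the tests were chosen with earlier results of these data known. The genes named were the 10, Srebf1, up to 4 of each list by smallest p, and up to 5 neighbours of Sparc by smallest p. The first 3 markers were named in full only for bile duct, mesothelial and stellate cells. For the other cell types they were planned as well but mostly left out. Among those, Stab1 and Stab2 (endothelium) and Clec4f, Vsig4 and Cd5l (macrophage) overlapped. Apoa1 (hepatocyte) was lower in both KO libraries. Lyve1 (endothelium), Cd3g (lymphocyte), and Thy1, Eln and Fbln2 (portal fibroblast) were higher in both. Some genes of these lists are not reported here by name. Other settings tried were a pseudocount of 0.1 or 0.5, a minimum of 5 FPKM or none, scaling by upper quartile or quantiles, a fit without the trend, a block for replicate number, single rows in place of sums, and leaving out each library. Python 3.11.15 and matplotlib 3.10.9 made the tables and figures.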

Additional observations from a re-analysis of the deposited data

How the results depend on the processing

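The count of genes past the threshold, 7 in all, was 11 with a pseudocount of 0.1, 0 without a filter (limma, 1483 genes at an unadjusted p under 0.05), 3 with a minimum of 5 FPKM and 4 with quantile scaling. It ran from 1 to 306 with 1 library left out. At an unadjusted p under 0.05, 58.1% of genes were higher in KO, against 46.2% with upper-quartile and 48.4% with quantile scaling. The count among the 10 genes stayed at 0 under every alternative except with 1 library left out, where it ran from 0 to 2. It ran from 0 to 1 for resting stellate cells, matrix turnover, TGF-beta and PDGF signalling and the receptors, from 0 to 3 for activated stellate cells, and from 0 to 2 for glycoproteins and for the retinoid list. With the replicate number as a block 19 genes passed and again none of the 10, at limma adjusted p = 0.0623 for Spp1, 0.162 for Sparc and 0.185 for Colec11. Deviations of libraries with the same number correlated at 0.17 over 9820 genes, which does not establish pairs.

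Small differences turned sign with 1 library left out, where they ran from −0.11 to 0.057 for Col1a1, −0.15 to 0.10 for Col1a2, −0.042 to 0.20 for Col3a1, −0.063 to 0.13 for Dcn and −0.070 to 0.085 for Des. The ranges were −0.54 to 0.11 for Col27a1, −0.26 to 0.026 for Col18a1, −0.22 to 0.032 for Col4a2 and −0.39 to 2.25 for Cyp26a1. With rows as deposited Dcn was at −0.021 and Loxl4 at −0.11, since other rows of the gene were then left out. Des was at −0.0082 with upper-quartile scaling and −0.0067 with quantile scaling. Under the alternatives the log2 difference ran from 1.16 to 1.64 for the Sparc row NM_001290817 (not tested at a minimum of 5 FPKM). It ran from 0.23 to 0.54 for NM_009242. With 1 library left out neither row could turn sign, since both KO values lay above both WT values.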
